A study of Mus musculus with 16 samples.

Results

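Messenger RNA of 9 genes for hepatic organic ion and drug transporters was followed in cultured mouse hepatocytes: Slco1a1, Slco1a4, Slco1b2, Slco2b1, Slc22a7, Abcb1a, Abcc2, Abcc3 and Abcc6. They were taken by symbol from a table of 55450 genes, and all 9 were present and above the filter on low values. The cells were primary hepatocytes of wild-type mice, kept overnight in DMEM with 5% fetal bovine serum and insulin-transferrin-selenium, and the labels used here do not state how many animals gave the cells. The 4 groups were left untreated, given 10 mM sodium itaconate, given a chemically defined lipid mixture at a dilution of 1 in 10 (palmitic, stearic, myristic, oleic, linoleic and arachidonic acids with cholesterol), or given both. Each group had 4 libraries, lettered A to D, with 1 library of each treatment per letter. Nothing in the labels says that the letters are separate animals or cultures. The p-values rest on the spread between these libraries that is left after differences between letters are removed, and it may be technical.

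Hepatocytes clear drugs, hormones, bilirubin and bile acids from blood into bile in steps. Organic anion transporting polypeptides (the Slco genes) and organic anion transporters such as Slc22a7 take up their substrates across the basolateral membrane that faces the blood. ATP-binding cassette pumps then export parent compounds and conjugates, Abcb1a and Abcc2 across the canalicular membrane into bile, and Abcc3 and Abcc6 across the basolateral membrane back towards blood.

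Slco1b2, Slco1a4 and Slco1a1 are neighbours on chromosome 6 of GRCm38, within 317.4 kb. Slco1b2 lies on the plus strand at chr6:141629518-141686646, Slco1a4 on the minus strand at chr6:141805440-141856199 and Slco1a1 on the minus strand at chr6:141907282-141946962. The gap between Slco1b2 and Slco1a4 is 118.8 kb and that between Slco1a4 and Slco1a1 is 51.1 kb. The 250 bases upstream of their RefSeq start sites are shown because these 3 neighbours were all called lower with lipid alone, as given further on. The windows (GRCm38.p6, RefSeq) are chr6:141629268-141629517 on the plus strand for Slco1b2, and chr6:141856221-141856470 and chr6:141946963-141947212 on the minus strand for Slco1a4 and Slco1a1. No annotated exon falls in them. Each is written 5′ to 3′ along its gene, with matches on either strand to AGGTCA, a nuclear receptor half-site, in capitals.
Slco1b2: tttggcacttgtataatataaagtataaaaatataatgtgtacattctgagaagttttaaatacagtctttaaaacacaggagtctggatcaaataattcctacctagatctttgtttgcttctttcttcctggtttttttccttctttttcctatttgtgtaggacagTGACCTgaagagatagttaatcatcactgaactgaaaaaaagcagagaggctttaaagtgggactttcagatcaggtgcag
Slco1a4: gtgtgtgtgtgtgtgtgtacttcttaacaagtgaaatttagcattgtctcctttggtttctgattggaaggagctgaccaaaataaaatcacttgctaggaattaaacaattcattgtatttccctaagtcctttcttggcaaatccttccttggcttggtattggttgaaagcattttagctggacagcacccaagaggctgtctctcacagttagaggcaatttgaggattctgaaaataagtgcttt
Slco1a1: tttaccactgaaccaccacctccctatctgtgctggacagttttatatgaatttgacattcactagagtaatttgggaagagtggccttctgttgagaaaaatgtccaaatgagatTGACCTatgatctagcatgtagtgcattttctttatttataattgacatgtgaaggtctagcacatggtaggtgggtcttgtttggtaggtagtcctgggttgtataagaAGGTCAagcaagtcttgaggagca

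The Slco1b2 window held the reverse complement of AGGTCA with its first base 81 bases upstream. The Slco1a1 window held AGGTCA 24 bases upstream and its reverse complement 134 bases upstream. The Slco1a4 window held none. Of 32851 RefSeq windows of the same length, 14.0% held AGGTCA on either strand. The antioxidant response element core TGACNNNGC, found in 10.2% of windows, was in none of the 3. TATAAA, found on either strand in 12.4% of windows, was in that of Slco1b2 as written and in that of Slco1a1 only as its reverse complement. CCAAT, found on either strand in 33.8%, was in that of Slco1a4 only as its reverse complement. RefSeq windows were matched for 6 of the 9 genes. On either strand, the Abcc2 window held AGGTCA 49 bases upstream and TGACNNNGC 98 bases upstream, and it also held CCAAT. The windows of Abcb1a and Slco2b1 held neither AGGTCA nor TGACNNNGC. The RefSeq start site used for Abcb1a, chr5:8567091, lies upstream of the gene start at chr5:8660077 in the annotation used for positions. Its window therefore does not adjoin the gene as placed here. These matches describe the letters of the windows and show no binding.

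The other members are spread over the genome (GRCm38). Slco2b1 lies at chr7:99657804-99711340 and Abcc6 at chr7:45967555-46030302, both on the minus strand. Slc22a7 lies at chr17:46432183-46438457 and Abcc3 at chr11:94343295-94392997, also on the minus strand. Abcb1a lies at chr5:8660077-8748575 and Abcc2 at chr19:43782192-43840740, both on the plus strand. All 9 are annotated as protein coding, with 11 merged exons in Slc22a7 and 33 in Abcc6 as the extremes. Counts cover the exons of a gene together.

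Libraries summed to between 22346049 and 35512004 expected counts, which are fractional read counts that RSEM estimates per gene. The hepatocyte label was checked against 10 markers (Alb, Ttr, Apob and others), all with counts in 16 of 16 libraries. Their summed level ran from 33900 to 59100 CPM, that is, counts per 1e6 counts of the library total scaled by TMM. Macrophage markers summed to 162 to 332 CPM, mostly from Cd68, endothelial markers to 13.6 to 28.1 CPM and stellate markers to 15.6 to 25.0 CPM, nearly all from Reln. Cholangiocyte markers summed to 344 to 1180 CPM, almost all from Spp1 and Sox9, while Krt19 reached at most 0.548 CPM, Epcam at most 0.58 CPM and Cftr was at 0 in every library. In bulk samples, fewer cells of a type and less RNA per cell cannot be told apart.

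Compared per length, the efflux pump genes Abcc3 and Abcc2 stood highest. Merged exons take in every annotated transcript of a gene, so these levels depend on that annotation. In untreated libraries the mean level in CPM per kilobase of merged exon was 62.2 ± 4.10 for Abcc3, 31.7 ± 2.32 for Abcc2, 18.0 ± 1.70 for Slco1a1 and 16.3 ± 1.42 for Slco1b2 (SD, n = 4). Abcc6 followed at 6.19 ± 0.381, Slco2b1 at 3.34 ± 0.133, Abcb1a at 2.44 ± 0.651, Slc22a7 at 1.63 ± 0.571 and Slco1a4 at 0.784 ± 0.359. The order of the means was the same in all 4 groups. Neighbours whose untreated libraries overlapped were Slco1a1 with Slco1b2, Slco2b1 with Abcb1a, Abcb1a with Slc22a7, and Slc22a7 with Slco1a4. The 2 highest members did not overlap each other or the third.

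**Figure D1:**
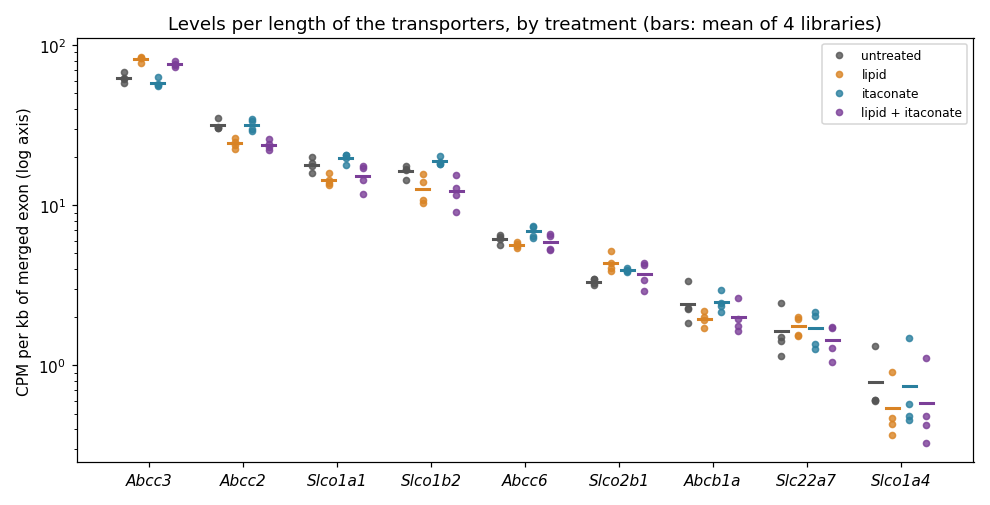
Level of each transporter mRNA per length (CPM per kilobase of merged exon, log axis), in order of the untreated mean, with a point for each library, a colour for each treatment and bars for the mean of 4 libraries. Untreated means ran from 62.2 for Abcc3 down to 0.784 for Slco1a4, and the order of means was the same in every treatment.

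Reads of near-identical genes limit some of these values. Of the 50-base stretches of its transcripts, Abcb1a shares 17.6% with other genes, chiefly Abcb1b. Its level depends on how RSEM divided the shared reads, and the error this leaves was not measured. Abcb1b averaged 20.6 CPM untreated and 12.1 CPM with lipid, against 13.3 and 10.7 CPM for Abcb1a. Whether reads of Abcb1b entered the changes of Abcb1a was not tested. Slco1a1 shares 1.64% and Slco1a4 1.61%, chiefly with each other and with Slco1a5. Slco1a5 and Slco1a6 themselves were close to absent, with group means of at most 0.0621 and 0.00963 CPM. Slco1b2, Slco2b1, Slc22a7, Abcc3 and Abcc6 share none.

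The effect of lipid was asked in cells without and with itaconate, and that of itaconate in cells without and with lipid. Each group stands in more than 1 of these comparisons, so those that share a group share its libraries. Differences are log2 fold changes from edgeR's quasi-likelihood test, fitted to 11675 genes of all 16 libraries with the replicate letter as a block, and p-values are adjusted over all those genes by the Benjamini-Hochberg method, with a call at an adjusted p under 0.05.

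Lipid alone changed 6 of the 9 transporters: Slco2b1 and Abcc3 rose, and Slco1a1, Slco1a4, Slco1b2 and Abcc2 fell. Lipid was a broad change, since 47.5% of all genes tested were called in this comparison, 23.8% higher and 23.7% lower. The median log2 fold change of the 9 members was -0.29, against 0.01 over all genes tested. With lipid added to itaconate, 6 of the 9 were again called, against 47.0% of all genes. Abcc3 rose, and Slco1a1, Slco1b2, Abcb1a, Abcc2 and Abcc6 fell, with a median of -0.33 over the members and 0.00 over all genes. The 4 members called in the same direction both times were Abcc3, which rose, and Slco1a1, Slco1b2 and Abcc2, which fell. The share of all genes called in the same direction both times was not counted, so this count is not set against a background. These comparisons share no library, but they share the 4 letters and a single fit with a common estimate of the spread, so they are not independent.

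**Figure D2:**
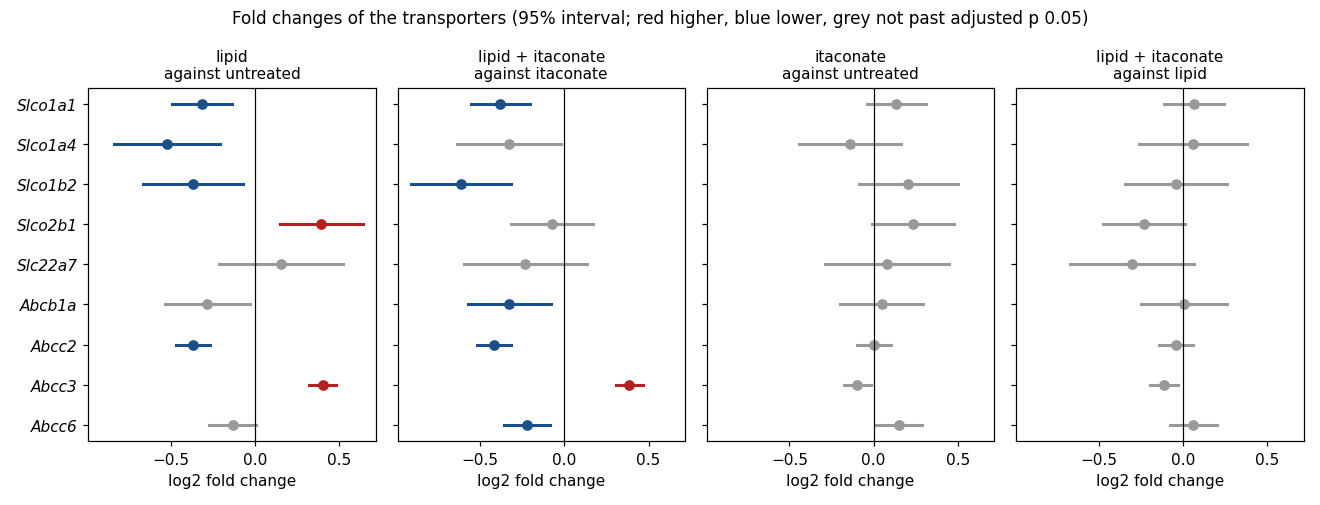
Log2 fold change of each transporter in the 4 comparisons, with points for the estimate and lines for its 95% interval, red where called higher, blue where called lower and grey where not called (edgeR's quasi-likelihood test). With lipid 6 of 9 members were called in each of the left panels, and with itaconate 0 in either of the right panels.

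Among the uptake carriers, Slco1a1 was lower with lipid in every letter. It takes up bile acids and steroid conjugates without sodium. Its levels in replicates A to D were 105, 93.0, 83.6 and 97.0 CPM untreated and 70.7, 72.1, 76.3 and 83.8 CPM with lipid, and 109, 108, 93.8 and 105 CPM with itaconate against 90.6, 92.2, 62.3 and 75.5 CPM with both. The lipid library D only just exceeded the lowest untreated library, and the groups with itaconate did not overlap. Slco1a1 fell by 0.31 with lipid alone (SE 0.0837, adjusted p = 0.00606 by edgeR's quasi-likelihood test) and by 0.38 with lipid beside itaconate (SE 0.083, adjusted p = 0.00161 by the same test). The first of these calls was lost without the 4 libraries of letter A (-0.23, adjusted p = 0.0612).

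Slco1b2, the main carrier of conjugated bilirubin and many drugs into mouse hepatocytes, followed the same direction with more spread. Its levels in replicates A to D were 81.5, 70.6, 82.5 and 87.1 CPM untreated and 51.2, 53.2, 76.9 and 68.4 CPM with lipid. They were 89.2, 89.2, 99.9 and 92.3 CPM with itaconate and 63.1, 76.3, 44.7 and 57.0 CPM with both. The untreated and lipid libraries overlapped, whereas every library with both agents lay under every library with itaconate. Slco1b2 fell by 0.37 with lipid alone (SE 0.141, adjusted p = 0.0408 by edgeR's quasi-likelihood test) and by 0.62 with lipid beside itaconate (SE 0.14, adjusted p = 0.00218). The second call held in all 27 alternative settings. The first was lost in 12 of the 27, with adjusted p = 0.0511 without the letter block and 0.0736 by DESeq2. The other 10 left out letter A (adjusted p = 0.213, the highest) or D, or a single library: untreated A, C or D, lipid A, B or D, or itaconate A or B.

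Slco1a4, a carrier of steroid conjugates and cardiac glycosides, was scarce in these cells and higher in letter A than in the other letters under every treatment. Replicate A had 8.48 CPM untreated, 5.85 with lipid, 9.47 with itaconate and 7.09 with both. Replicates B to D together ran from 3.82 to 3.91 CPM untreated, 2.37 to 3.00 with lipid, 2.91 to 3.69 with itaconate and 2.10 to 3.12 with both. Within each letter the lipid library was lower than the untreated library. Slco1a4 fell by 0.52 with lipid alone (SE 0.148, adjusted p = 0.00858 by edgeR's quasi-likelihood test), a call that rests on the letter block (adjusted p = 0.391 without it). Beside itaconate the log2 difference was -0.33 (95% interval -0.64 to -0.02, adjusted p = 0.0767), lower in 3 of 4 letters, and the adjusted p was 0.0385 without itaconate replicate D and 0.043 without replicate B of the group with both agents.

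Slco2b1, a carrier of sulfated steroids, was the uptake carrier that rose. Its levels in replicates A to D were 20.5, 19.6, 18.9 and 20.6 CPM untreated and 23.1, 24.0, 31.1 and 26.1 CPM with lipid, so the groups did not overlap. The rise with lipid alone was 0.39 (SE 0.116, adjusted p = 0.0113 by edgeR's quasi-likelihood test), and without lipid replicate C it was 0.26 with an adjusted p of 0.0589. With itaconate the levels were 23.5, 22.8, 24.2 and 23.1 CPM, and with both 25.9, 25.4, 17.3 and 20.3 CPM. Letters A and B were higher with both agents than with itaconate, and letters C and D lower. The log2 difference was -0.08 (95% interval -0.32 to 0.17, adjusted p = 0.618), and 0.06 without the library with both agents of letter C.

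Slc22a7, an organic anion transporter of the basolateral membrane, was called in neither lipid comparison. Its 16 libraries ran from 2.20 to 5.15 CPM and all 4 groups overlapped. The log2 difference was 0.15 with lipid alone (95% interval -0.22 to 0.52, adjusted p = 0.493 by edgeR's quasi-likelihood test) and -0.23 beside itaconate (95% interval -0.60 to 0.14, adjusted p = 0.288). The first interval holds a rise of the size found for Slco2b1, so such a rise is not excluded.

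**Figure D3:**
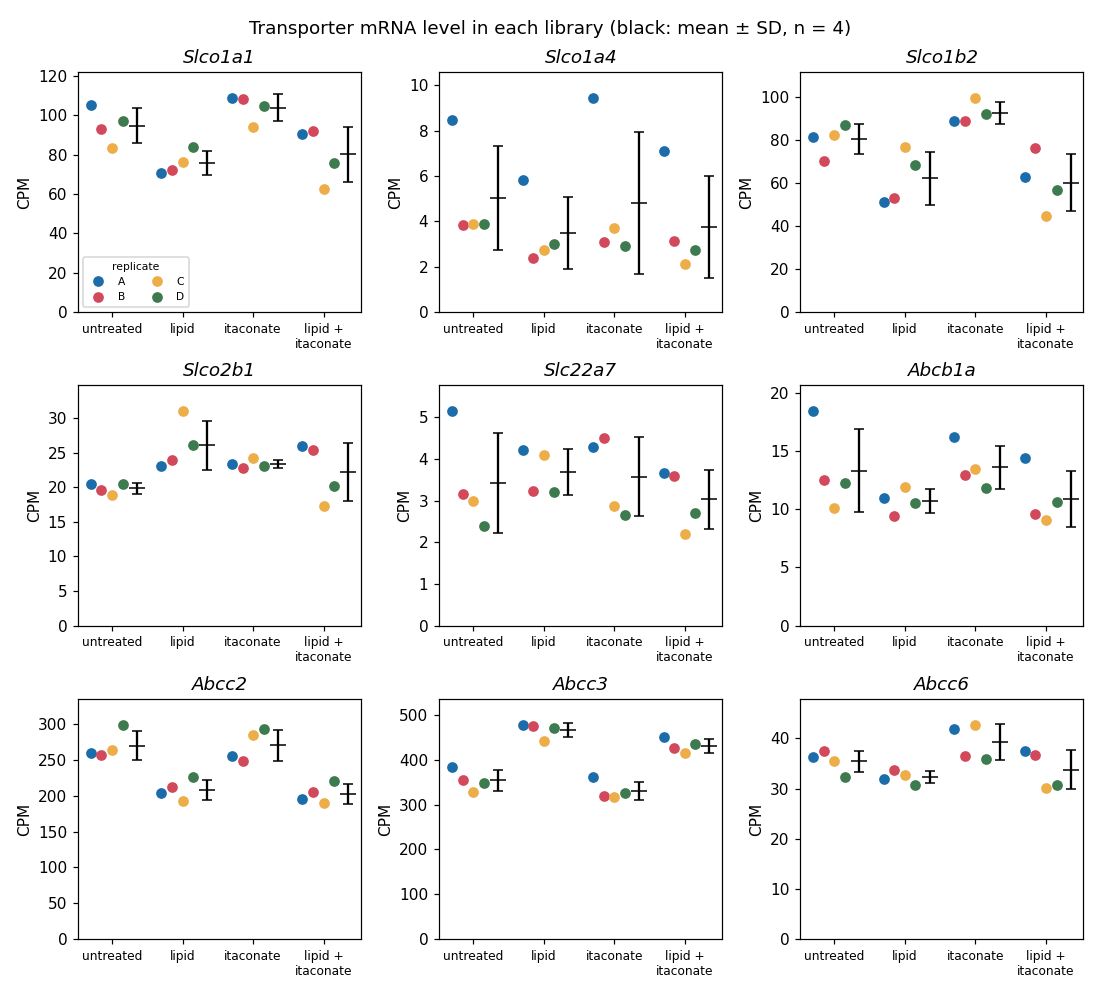
Level of each transporter mRNA in CPM (vertical axis from 0) in all 16 libraries by treatment, with a colour for each replicate letter and black marks for the mean ± SD of 4 libraries. Abcc2 and Abcc3 separate the lipid groups from the groups without lipid, and replicate A is highest for Slco1a4 in every treatment.

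Abcc2, the canalicular pump for bilirubin glucuronides and glutathione conjugates, fell with lipid in both settings. Its levels in replicates A to D were 259, 258, 264 and 299 CPM untreated and 203, 213, 193 and 226 CPM with lipid. They were 255, 249, 285 and 293 CPM with itaconate and 196, 205, 189 and 221 CPM with both. No library with lipid reached the lowest library without it. Abcc2 fell by 0.37 with lipid alone (SE 0.0476, adjusted p = 1.58e-05 by edgeR's quasi-likelihood test) and by 0.42 beside itaconate (SE 0.0475, adjusted p = 6.4e-06), and both calls held in all 27 alternative settings.

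Abcb1a, which encodes a P-glycoprotein that exports many hydrophobic drugs, had levels of 18.5, 12.5, 10.2 and 12.3 CPM untreated and 11.0, 9.40, 12.0 and 10.6 CPM with lipid in replicates A to D. They were 16.2, 12.9, 13.4 and 11.9 CPM with itaconate and 14.4, 9.63, 9.04 and 10.6 CPM with both. Each pair of groups overlapped, with letter A highest in 3 of the 4 groups. The log2 difference with lipid alone was -0.29 (95% interval -0.54 to -0.03, adjusted p = 0.0587 by edgeR's quasi-likelihood test). It ranged from -0.13 without letter A to -0.45 without letter C, where the adjusted p was 0.00294. It passed the threshold in 6 of 27 settings, which were DESeq2 (adjusted p = 0.0426), no filter, and leaving out letter C or its untreated, lipid or combined library. Beside itaconate Abcb1a fell by 0.33 (SE 0.117, adjusted p = 0.0316), lower in 4 of 4 letters, with adjusted p = 0.166 without the letter block. The call was also lost on leaving out letter B, C or D, or the itaconate or combined library of letter B or C, with adjusted p from 0.0648 to 0.122.

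Abcc3 was the efflux pump that rose, and it was the most abundant member per length in every group. It exports glucuronide conjugates and bile acids across the basolateral membrane. Its levels in replicates A to D were 385, 355, 329 and 348 CPM untreated and 479, 475, 443 and 471 CPM with lipid. They were 361, 320, 317 and 326 CPM with itaconate and 451, 425, 415 and 436 CPM with both. Every library with lipid exceeded every library without it. The rise was 0.40 with lipid alone (SE 0.0381, adjusted p = 8.59e-07 by edgeR's quasi-likelihood test), which is 32.0% on the linear scale, and 0.39 beside itaconate (SE 0.0381, adjusted p = 1.72e-06). Both calls held in all 27 alternative settings.

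Abcc6, a basolateral pump through which hepatocytes release ATP, varied little. Its levels in replicates A to D were 36.2, 37.5, 35.4 and 32.4 CPM untreated and 31.9, 33.6, 32.7 and 30.7 CPM with lipid. They were 41.8, 36.6, 42.7 and 35.9 CPM with itaconate and 37.6, 36.6, 30.1 and 30.6 CPM with both. The lipid libraries overlapped the untreated libraries, and the libraries with both agents overlapped those with itaconate. With lipid alone the log2 difference was -0.13 (95% interval -0.27 to 0.01, adjusted p = 0.108 by edgeR's quasi-likelihood test), and 4 of 4 letters were lower. Beside itaconate Abcc6 fell by 0.22 (SE 0.0648, adjusted p = 0.0112), a call lost without itaconate replicate C (adjusted p = 0.0609), letter D (0.066) or letter C (-0.13, adjusted p = 0.118).

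Within each library the ratio of Abcc3 to Abcc2, the basolateral and the canalicular conjugate pump, was higher with lipid than without it. The ratio of their levels per length was 1.97 ± 0.213 in untreated libraries and 3.36 ± 0.173 with lipid, 1.84 ± 0.219 with itaconate and 3.20 ± 0.213 with both (SD, n = 4). Its size depends on the merged exon lengths, 5.7 kb for Abcc3 and 8.53 kb for Abcc2, which scale every library alike. In CPM the untreated means were 354 and 270. The lowest library with lipid stood at 2.95 and the highest without it at 2.22. The ratio of Slco2b1 to Slco1b2, both uptake carriers, was 0.206 ± 0.0177 untreated and 0.349 ± 0.0292 with lipid, 0.209 ± 0.00723 with itaconate and 0.308 ± 0.0286 with both. Here too the libraries with and without lipid did not overlap, the nearest being 0.275 and 0.229. The ratio of Slco1b2 to Slco1a1 was 0.915 ± 0.115 untreated and 0.879 ± 0.14 with lipid, 0.961 ± 0.123 with itaconate and 0.802 ± 0.0621 with both, with overlapping libraries. These pairs were chosen after their values were seen and are given as descriptions, without a test.

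**Figure D4:**
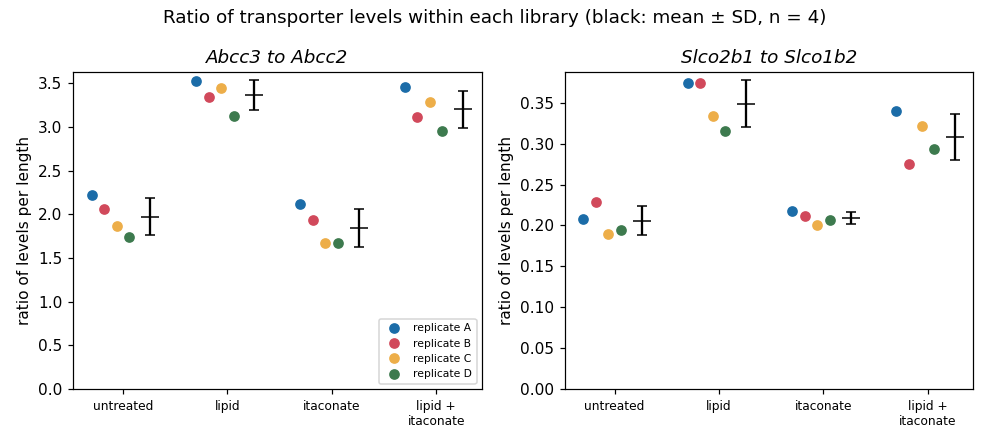
Ratio of levels per length (vertical axis from 0) of Abcc3 to Abcc2 and of Slco2b1 to Slco1b2 within each library by treatment, with a colour for each replicate letter and black marks for the mean ± SD of 4 libraries. The libraries with lipid lie at or above 2.95 for Abcc3 to Abcc2 and at or above 0.275 for Slco2b1 to Slco1b2, and those without lipid at or below 2.22 and 0.229.

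Hepatocyte markers moved with lipid as well. Of the 10, 5 fell and 1 rose with lipid alone, with a median log2 fold change of -0.21, and 7 fell beside itaconate, with a median of -0.23. Over all genes tested, 23.7% fell and 23.8% rose with lipid alone, and 23.5% went each way beside itaconate. Beside itaconate letter C stood apart, with a median log2 change of -0.46 for the markers and -0.57 for the members, against -0.08 to -0.21 and -0.19 to -0.22 in the other letters. Without letter C, Slco1a1, Slco1b2 and Abcc2 still fell there and Abcc3 rose, and Abcb1a and Abcc6 were not called. Mitochondrial transcripts took 3.99 to 6.01% of counts with both agents, 3.27 to 4.69% with itaconate, 3.46 to 4.70% with lipid and 3.63 to 4.14% untreated. The summed hepatocyte marker level ran from 43500 to 58600 CPM untreated and 37900 to 49800 CPM with lipid, and from 43500 to 59100 CPM with itaconate and 33900 to 54600 CPM with both. All 3 cholangiocyte markers above the filter, among them Spp1 and Sox9, fell in both comparisons, their list summing to 613 to 1180 CPM untreated, 344 to 619 with lipid, 586 to 1060 with itaconate and 365 to 655 with both. Of 8 macrophage markers above the filter, 4 fell and 1 rose with lipid alone and 7 fell and 1 rose beside itaconate. Their list summed to 184 to 294 CPM untreated, 234 to 332 with lipid, 162 to 249 with itaconate and 217 to 322 with both. Itaconate called 0 of the 10 hepatocyte markers and 0 of the 3 cholangiocyte markers with or without lipid. Of the 8 macrophage markers it raised 1 and lowered 1 without lipid, and called 0 beside lipid. The shares of all genes called were 4.91% without lipid and 2.58% beside it. The part of these shifts in the transporter values was not tested.

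Itaconate was followed by no call among the 9 transporters. Without lipid, 4.91% of all genes tested were called (1.96% higher and 2.95% lower) and 0 of the members by edgeR's quasi-likelihood test, with 2 members, Abcc3 and Abcc6, at an unadjusted p under 0.05, as were 21.3% of all genes. Abcc3 was lower in 4 of 4 letters, with a log2 difference of -0.10 (95% interval -0.18 to -0.02, adjusted p = 0.152 by edgeR), and Abcc6 was higher in 3 of 4, by 0.15 (adjusted p = 0.2). Slco1b2 and Slco2b1 were each higher in 4 of 4 letters without overlap of the groups, by 0.20 (95% interval -0.09 to 0.50, adjusted p = 0.414) and 0.23 (95% interval -0.01 to 0.48, adjusted p = 0.258 by edgeR). The share of all genes that went the same way in every letter, or without overlap of the groups, was not counted. These patterns are therefore not set against a background. A fit of the 8 untreated and itaconate libraries alone called 4 members, Slco1a1, Slco1b2 and Slco2b1 higher and Abcc3 lower. Their adjusted p ran from 0.0084 to 0.0471 by edgeR, and this fit called 16.0% of all genes. The fit with no filter called 2, Slco1b2 and Slco2b1, and 4.34% of all genes, and DESeq2 and limma-trend called 0. For Abcc2 the estimate was 0.00 with a 95% interval of -0.10 to 0.10.

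Beside lipid, itaconate was again followed by no call among the 9, against 2.58% of all genes (1.32% higher and 1.26% lower), with 1 member, Abcc3, at an unadjusted p under 0.05, as were 17.3% of all genes. Abcc3 was lower in 4 of 4 letters, with a log2 difference of -0.11 (95% interval -0.19 to -0.03, adjusted p = 0.133 by edgeR's quasi-likelihood test), and DESeq2 called it (adjusted p = 0.0384) with 4.54% of all genes, limma-trend 0 members. The widest differences were -0.30 for Slc22a7 (95% interval -0.67 to 0.07) and -0.23 for Slco2b1 (95% interval -0.48 to 0.01). The letters went apart here. In letter C all 9 members were lower with both agents than with lipid, and in letter D 8 of 9, whereas 6 of 9 were higher in letter A and 7 of 9 in letter B. The share of all genes lower or higher within each letter was not counted. The 10 hepatocyte markers had a median log2 change of -0.27 in letter C, where 9 were lower, 0.01 in letter D, where 4 were lower, 0.16 in letter A and 0.23 in letter B, where 1 each was lower.

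Whether itaconate altered the effect of lipid was asked with an interaction term, which called 0 of the 9 members and 0.00857% of all genes tested. Slco2b1 had the largest estimate, -0.47 (95% interval -0.81 to -0.12, adjusted p = 0.434 by edgeR's quasi-likelihood test), and was the 1 member with an unadjusted p under 0.05, a level that 8.60% of all genes reached. DESeq2, which gave an adjusted p for 6 of the 9, and limma-trend called 0, and the fit with no filter called Slco2b1 (adjusted p = 0.00446) and 0.918% of all genes. For Abcc2 and Abcc3 the intervals of the interaction were narrow, -0.19 to 0.10 and -0.13 to 0.10. For Slco1b2, whose fall was 0.37 without and 0.62 with itaconate, the estimate was -0.25 with an interval of -0.67 to 0.17, so the 2 falls were not shown to differ.

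Of 14 further efflux pumps of the hepatocyte, 10 passed the filter, and lipid alone raised 0 and lowered 3. Lipid alone raised 23.8% and lowered 23.7% of all genes, and beside itaconate 23.5% went each way. Abcb1b, the paralog of Abcb1a, fell by 0.77 (SE 0.0802, adjusted p = 2.05e-06 by edgeR's quasi-likelihood test). Abcg2, a canalicular pump for sulfate conjugates, fell by 0.40, and Abcc4, a basolateral one, by 0.36 (adjusted p = 2.78e-06 and 0.023). Beside itaconate 0 rose and 4 fell, among them Abcb1b by 0.63, Abcg2 by 0.39 and the bile salt export pump Abcb11 by 0.27 (adjusted p = 1.74e-05, 4.21e-06 and 0.0147 by edgeR). The phospholipid flippase Abcb4 was not called, at 0.17 and 0.05. Abcb1b was also the 1 pump that itaconate alone lowered, by 0.29 (adjusted p = 0.046 by edgeR), while Abcb1a was at 0.05 there. Itaconate alone lowered 2.95% of all genes.

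Of 33 further uptake carriers, 17 passed the filter, and lipid alone raised 2 and lowered 4, against 23.8% and 23.7% of all genes. The carnitine carrier Slc22a5 fell by 0.68 and Slc22a15 by 0.66, and the nucleoside carrier Slc29a2 rose by 0.70 (adjusted p = 2.88e-05, 0.00015 and 0.0014 by edgeR's quasi-likelihood test). The bile acid carrier Slc10a1, which shares substrates with Slco1a1 and Slco1b2, was at -0.10 with lipid alone (adjusted p = 0.383) and fell by 0.39 beside itaconate (adjusted p = 0.00296 by edgeR). The exchanger Slc47a1 was not called, at -0.03 and -0.12. Beside itaconate 2 of the 17 rose and 5 fell, against 23.5% of all genes in each direction. Slc22a15 was at -0.82 and the carrier Slc22a4 at 0.53. Itaconate called 0 of the 17 without lipid and 1 beside it, against 4.91% and 2.58% of all genes. The carrier called was Slc22a23, which rose by 0.19 (adjusted p = 0.0324 by edgeR).

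Transporter genes are under the control of nuclear receptors and stress-responsive factors in liver. Of 20 such factors and scaffold proteins, all above the filter, lipid alone raised 5 and lowered 5, against 23.8% and 23.7% of all genes. The pregnane X receptor gene Nr1i2 rose by 0.55, Cebpa by 0.39 and the scaffold Pdzk1, which anchors carriers at the membrane, by 0.41 (adjusted p = 9.57e-05, 3.98e-05 and 0.00112 by edgeR's quasi-likelihood test). The scaffold Slc9a3r1 fell by 0.84, the aryl hydrocarbon receptor gene Ahr by 0.73 and Nfe2l2, a regulator of antioxidant genes, by 0.25 (adjusted p = 8.42e-07, 2.46e-07 and 0.000127). Hnf4a was at 0.11, Nr1i3 at -0.07, Nr1h4 at -0.12, Nr0b2 at 0.37 and Rdx at 0.02, none of them called. Beside itaconate 6 rose and 6 fell, against 23.5% of all genes in each direction. Slc9a3r1 was at -0.68, Ahr at -0.58 and Cebpa at 0.37. Hnf4a rose by 0.21 there, and Nr1h4 and Nr1i3 fell by 0.41 and 0.40 (adjusted p = 0.0143, 0.00401 and 0.0488 by edgeR). Beside lipid, itaconate raised 2 of the 20, Slc9a3r1 by 0.38 and Ahr by 0.27 (adjusted p = 0.0217 and 0.0342 by edgeR), and without lipid 0. It raised 1.32% of all genes beside lipid and 1.96% without lipid.

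Of 22 target genes of these receptors, 18 passed the filter, and lipid alone raised 5 and lowered 5, against 23.8% and 23.7% of all genes. Cyp2b10, a drug-metabolising enzyme induced through Nr1i3 and Nr1i2, rose by 1.09, Cyp1a1 by 0.79 and Nqo1 by 0.34 (adjusted p = 1.82e-07, 0.0133 and 0.0147 by edgeR's quasi-likelihood test). Gclc, of glutathione synthesis, fell by 0.67, Txnrd1 by 0.46 and the fatty acid hydroxylase Cyp4a14 by 0.17, while Srxn1 rose by 0.38 (adjusted p = 2.6e-05, 9.68e-07, 0.026 and 4.48e-05). Cyp3a11 and Cyp1a2 were at -0.14 and -0.07, neither called, and Cyp7a1 was under the filter. Beside itaconate 2 of the 18 rose and 6 fell, against 23.5% of all genes in each direction. Cyp2b10 was at 0.95, Gclc at -0.48 and Txnrd1 at -0.37. Itaconate raised Gclc by 0.41 beside lipid (adjusted p = 0.0278 by edgeR) and called 0 of the 18 without it. The shares of all genes called were 2.58% beside lipid and 4.91% without it.

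For each member the genes with the nearest pattern were found among 9356 genes averaging 5 CPM or more. The measure was the root-mean-square difference of log2 CPM over the 16 libraries after centring within letters. Among the 2 nearest to Slco1b2 was Cps1 at 0.05, against its own SD of 0.33. Slco1a1 lay nearest to Selenoi at 0.038 and Pipox at 0.041, and Slco1a4 to Ugt3a1 at 0.116 and Maoa at 0.118. Slco2b1 lay nearest to Slc30a1 at 0.083 and Eif4a2 at 0.085, and Slc22a7 to Thnsl2 at 0.125 and Agxt2 at 0.137. For Abcc3 the nearest were Zfand2a at 0.039 and the folate carrier Slc46a1 at 0.042, and for Abcc2 U2af2 at 0.048 and Hadha at 0.049. Abcb1a lay nearest to Prdm10 at 0.092 and Smurf1 at 0.094, and Abcc6 to Safb at 0.044 and Phactr4 at 0.046. No member was the nearest to another, but Slco1a4 and Slc22a7, averaging under 5 CPM, were not among the candidates.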

How the data were processed

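RNA was measured by stranded mRNA sequencing in 16 libraries of wild-type mouse hepatocytes. Per the labels, the authors trimmed reads with Cutadapt 1.18, aligned them to mm10 with STAR 2.7.0f and deposited expected counts per GENCODE gene from RSEM 1.3.1, which divide reads between genes that share them. Here these were rounded to whole numbers, scaled by TMM, and tested in edgeR 4.0.16 (R 4.3.3) for the 11675 genes whose mean reached 1 CPM, with treatment and replicate letter in a single model. Levels are CPM of TMM-scaled library totals. Alternatives used limma 3.58.1 and DESeq2 1.42.0.

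The letters were kept as a block because libraries of the same letter deviated together: their 24 correlations ran from 0.144 to 0.469, against a median of -0.114 between letters. No pair of libraries of a group was close enough to be a repeat deposit (24 pairs, chi-square per gene at least 9.14). The members, gene lists and markers were chosen with earlier results of these data known. Genes outside the members were named by a rule of fixed names plus up to 3 per list and comparison, past the threshold, averaging 5 CPM or more, with the largest change, and a few of these are not reported here. The script was tested on simulated counts. All 55450 gene IDs were found in the GENCODE M21 annotation, from which lengths and positions were taken.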

Additional observations from a re-analysis of the deposited data

Results flagged for a closer look

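Within groups of 4 libraries, 3 of 36 groups of transporter values held a library whose gap to the others exceeded Dixon's 95% critical value, and chance alone flags about 1 in 20 groups. Slco1a4 in untreated replicate A stood at 8.48 CPM, with the other 3 libraries between 3.82 and 3.91 CPM. Slco1a4 in itaconate replicate A stood at 9.465 CPM, with the others between 2.91 and 3.69 CPM. Both are of letter A, which was also highest for Slco1a4 in the groups with lipid. Abcc2 in untreated replicate D stood at 299.4 CPM, with the others between 258 and 264 CPM, and letter D was the highest for Abcc2 in the other 3 groups too.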

How the results depend on the processing

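The members called stayed between 4 and 7 of 9 with lipid alone and between 4 and 7 with lipid beside itaconate, over all alternatives and with each library or, added after seeing the data, each whole letter left out. Of the calls, Abcc2 and Abcc3 in both comparisons, and Slco1a1 and Slco1b2 beside itaconate, held in all 27 settings. Without the replicate block, 4 members were called with lipid alone and 5 beside itaconate (Slco1a4 and Slco1b2, and Abcb1a, were lost), and 0 in the other comparisons. The share of all genes called without the block fell as well, to 35.5% with lipid alone and 34.2% beside itaconate, from 47.5% and 47.0%. Members called with itaconate alone numbered 0, but 2 with no filter and 4 with only its 8 libraries. With itaconate beside lipid they numbered 0, but 1 by DESeq2, and for the interaction 0, but 1 with no filter. DESeq2 gave no adjusted p for 3 members in the interaction (Slco1a4, Slc22a7 and Abcb1a). These stayed at 0 with any library left out.

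Over all genes, itaconate alone called 573 genes, but 23 without the replicate block, 1091 with no filter and 1865 with only its 8 libraries. Itaconate beside lipid called 301, but 9 without the block, 725 with no filter, 509 by DESeq2 and 13 with only its 8 libraries. The interaction called 1, but 0 without the block, 2 with median-ratio scaling or filterByExpr, 231 with no filter and 36 by DESeq2. The cause was not tested. With a library or letter left out the counts ran from 4075 to 6003 for lipid alone, 3905 to 5559 for lipid beside itaconate, 70 to 1047 for itaconate alone, 26 to 889 for itaconate beside lipid and 0 to 8 for the interaction.

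Log2 differences that changed sign did so only when a library or letter was left out, and none of them was called. With lipid alone Slc22a7 ranged from -0.001 to 0.318, and with lipid beside itaconate Slco2b1 from -0.178 to 0.058. With itaconate alone the ranges were -0.061 to 0.14 for Abcb1a, -0.05 to 0.045 for Abcc2 and -0.073 to 0.227 for Slc22a7. With itaconate beside lipid they were -0.126 to 0.146 for Abcb1a, -0.032 to 0.185 for Slco1a1, -0.044 to 0.181 for Slco1a4 and -0.248 to 0.19 for Slco1b2. For the interaction they were -0.258 to 0.207 for Abcb1a, -0.091 to 0.01 for Abcc2, -0.047 to 0 for Abcc3, -0.174 to 0.01 for Abcc6, -0.196 to 0.057 for Slco1a1 and -0.436 to 0.006 for Slco1b2.

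Slco1a4 and Slc22a7, at mean levels under 6 CPM, had the widest intervals of the 9. All intervals come from the fit of 16 libraries and cover the spread left after differences between letters are removed.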
